A study of Mus musculus with 4 samples.

Results

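The genes described here encode 10 subunits of the CCR4-NOT complex, the main deadenylase of animal cells: Cnot1, Cnot2, Cnot3, Cnot4, Cnot6, Cnot6l, Cnot7, Cnot8, Cnot10 and Cnot11. They were taken by name from the 55364 genes of the deposited tables through their Ensembl identifiers in GENCODE M21 (GRCm38), and all 10 were found. RNA-seq was done on mouse pachytene spermatocytes, meiotic germ cells in which paired chromosomes recombine, enriched from digested testis by elutriation. Wild-type mice (WT) gave 2 libraries, and mice with both Ddx4 alleles carrying a knock-in (KK) gave the other 2. Ddx4 encodes a germline RNA helicase of germ granules. The labels used here give neither the inserted sequence nor the strain, the age or the number of animals. They do not tie each library to an animal of its own, so p-values measure only how these libraries spread, and that spread may be technical.

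CCR4-NOT shortens the poly(A) tails of messenger RNAs, a step that usually comes before decapping and decay and that also lowers translation. Cnot1 encodes the scaffold on which the other subunits assemble. The catalytic subunits are of 2 kinds, an EEP-type nuclease encoded by Cnot6 or Cnot6l and a DEDD-type nuclease encoded by Cnot7 or Cnot8, and within each pair the paralogues take the same place in the complex. Cnot2 and Cnot3 encode the NOT module, which contacts regulators, and Cnot10 and Cnot11 form a module at the other end of the scaffold. Cnot4 encodes a ubiquitin ligase that is less firmly attached in mammals. In male germ cells the complex is recruited to its targets by RNA-binding proteins such as Nanos2, and male mice without Cnot7 are infertile.

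The libraries held total expected counts of 17970207 to 19438570. Ddx4 itself stood at 264.96 and 272.92 TPM in WT and at 54.44 and 52.49 TPM in KK. TPM is the count divided by effective length and scaled to the same total per library, so it allows genes to be compared. CPM, the share of the library's counts in parts per 1e+06 on the TMM scale, was used to compare genotypes. Of 10 pachytene markers all were tested, 6 fell and 1 rose, with summed levels of 11511 and 11504 CPM in WT and 10627 and 10456 CPM in KK. Over all 16571 genes tested, 21.7% fell and 22.0% rose at an edgeR adjusted p under 0.05. Markers of other testis cells also moved. All 7 Leydig cell markers rose, from a sum of 221 and 234 CPM to 691 and 702 CPM, and 5 of 8 spermatogonial markers rose and 1 fell (sums of 116 and 120 CPM in WT, 110 and 120 CPM in KK). Most of the spermatogonial sum was Id4, the marker that fell (92.7 and 94.0 CPM in WT, 67.8 and 72.4 CPM in KK). For the other 7, both KK libraries lay above both WT libraries, which held for 5964 of all 16571 genes tested. Of 8 spermatid markers 3 rose and 4 fell, with sums of 4163 and 4188 CPM in WT and 3505 and 3402 CPM in KK. Of 7 tested Sertoli markers 2 rose and 2 fell (140 and 142 against 181 and 183 CPM). Ptgds, which rose, went from 26.0 and 27.4 CPM in WT to 73.0 and 70.7 CPM in KK. The median log2 fold change of the Sertoli list was -0.21. The peritubular and endothelial markers summed to at most 10.1 CPM and the macrophage markers to at most 4.63 CPM in any library, 2 of 4 tested markers rose in each of these lists, and no list had a defining marker without counts in every library. Their part in the differences below was not tested. In bulk samples, fewer cells of a type and less RNA per cell cannot be told apart.

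The scaffold transcript Cnot1 was by far the most abundant of the complex, at 249.2 and 261.77 TPM in WT and 219.54 and 203.68 TPM in KK. It made up 45.7% and 46.6% of the summed TPM of the 10 genes in WT and 45.9% and 44.6% in KK. In WT, Cnot2 (69.68 and 71.02 TPM), Cnot10 (54.14 and 55.0), Cnot7 (50.66 and 52.11) and Cnot4 (45.42 and 46.1) followed. Cnot11 (23.11 and 22.99 TPM), Cnot6 (20.1 and 17.17), Cnot8 (14.85 and 13.75), Cnot3 (13.47 and 14.01) and Cnot6l (4.97 and 7.35) were lower. The only neighbours in this WT order whose libraries overlapped were Cnot8 and Cnot3.

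In KK the upper part of the order was kept by Cnot1, Cnot2 (63.57 and 60.85 TPM) and Cnot10 (51.86 and 53.7 TPM). Cnot4 (36.71 and 40.25 TPM) and Cnot7 (39.55 and 34.86 TPM) overlapped there, as did Cnot3 (15.85 and 13 TPM) and Cnot8 (14.78 and 14.01 TPM). Cnot6, which lay above Cnot8 in both WT libraries, lay below it in both KK libraries at 12.28 and 13.84 TPM, though the nearest values were only 0.17 TPM apart.

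**Figure D1:**
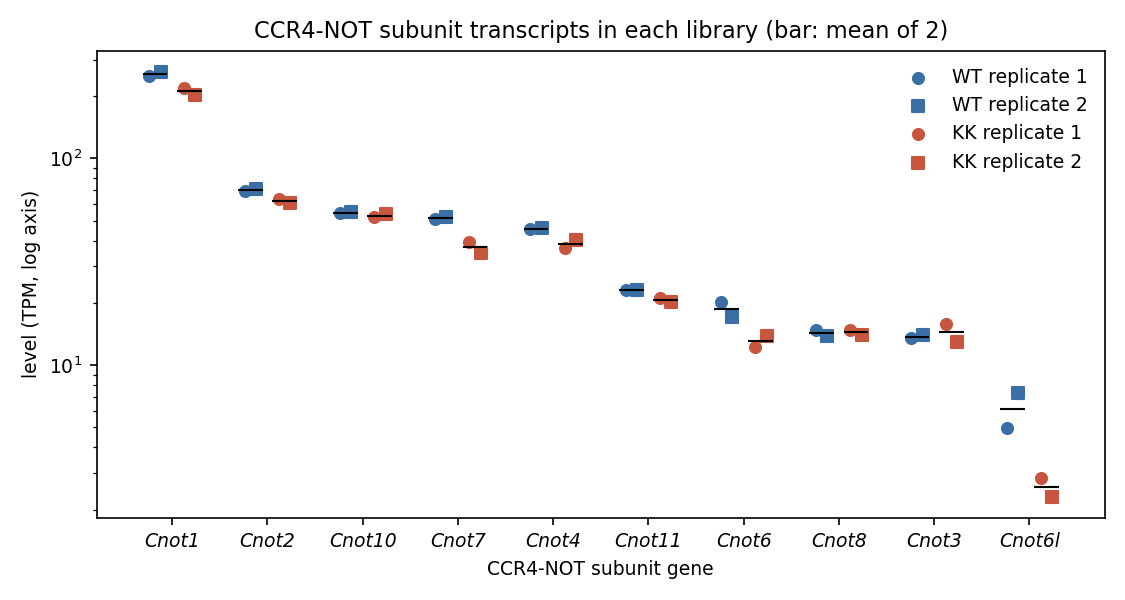
Level of each CCR4-NOT subunit transcript (TPM, log axis) in the 2 WT and 2 KK libraries, in order of the WT mean; short bars are means of 2. Cnot1 lies far above the rest. Both KK points lie below both WT points for every gene except Cnot3 and Cnot8. In TPM the same held for 31.1% of all genes tested.

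A short isoform takes a large part of the Cnot1 TPM. Cnot1-211, a retained-intron model with an effective length of 159 to 163 bases, had 165 and 194 counts in WT and 193 and 123 counts in KK, yet held 30.27% and 31.07% of the Cnot1 TPM in WT and 34.18% and 26.22% in KK. Counting protein-coding isoforms alone, Cnot1 stood at 130 and 134 TPM in WT and 113 and 111 TPM in KK and was still the first of the 10.

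Every CCR4-NOT transcript that passed the test was lower in KK. Of the 10 genes 5 fell (Cnot1, Cnot2, Cnot4, Cnot6 and Cnot7), 0 rose and 5 did not pass an edgeR quasi-likelihood adjusted p of 0.05. Of all 16571 genes tested, 43.7% passed, 21.7% as lower and 22.0% as higher. All 10 members passed the filter on low counts, with at least 107 counts in every library. Their median log2 fold change was -0.22, against 0.003 over all genes tested. With the length trend offset the members' median was -0.13 (all genes -0.003), and with library size scaling it was -0.13 (all genes 0.09). Both KK libraries lay below both WT libraries in CPM for 8 members, which held for 34.8% of all genes tested. The exceptions were Cnot6l and Cnot8. The summed TPM of the 10 genes was 546 and 561 in WT and 478 and 457 in KK.

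The scaffold Cnot1 (chromosome 8, 95719451 to 95807464, minus strand) had 945.8 and 973.0 CPM in WT and 820.4 and 823.1 CPM in KK. The KK libraries differed from each other by less than the WT libraries did, and the groups did not overlap. Cnot1 fell by 0.22 on the log2 scale (SE 0.03, adjusted p of 4.7e-06 by edgeR), or 1.17-fold. The fall was 0.14 with library size scaling and 0.10 with an offset for the trend of counts on transcript length, and it passed in both (adjusted p of 0.0018 and 0.016 by edgeR). An antisense gene, 4930513N10Rik, overlaps Cnot1 over 721 bases. It had 2983 and 3014 counts in WT and 2199 and 2136 counts in KK, a log2 fold change of -0.55 (adjusted p of 3.9e-11 by edgeR). The kit does not mark strand, so reads of the shared stretch cannot be told apart.

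Among the catalytic subunits Cnot6 and Cnot7 fell. Cnot6 (chromosome 11, 49671503 to 49712723, minus strand) had 57.7 and 50.8 CPM in WT and 35.7 and 36.5 CPM in KK. Both KK values lay well below the lower WT value. Cnot6 fell by 0.59 on the log2 scale (SE 0.08, adjusted p of 9.5e-07 by edgeR), or 1.5-fold, the largest change among the 10 in this fit. Cnot7 (chromosome 8, 40492540 to 40515847, minus strand) had 80.1 and 86.7 CPM in WT and 65.4 and 58.9 CPM in KK, again without overlap. Cnot7 fell by 0.42 (SE 0.06, adjusted p of 2.5e-06 by edgeR), or 1.34-fold. Both calls held in each of 15 alternative analyses. Vps37a, an endosomal sorting gene on the other strand, overlaps Cnot7 over 4065 bases and went from 1500 and 1690 counts to 1640 and 1417 counts, a log2 fold change of -0.15 (adjusted p of 0.031 by edgeR). Zdhhc2, also on the other strand, overlaps Cnot7 over 17729 bases. It had 34 and 36 counts in WT and 52 and 40 in KK.

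Their paralogues did not pass. Cnot8 (chromosome 11, 58104153 to 58118594, plus strand) had 20.0 and 18.5 CPM in WT and 19.47 and 18.9 CPM in KK, so the KK values lay inside the WT range. Its log2 fold change was -0.005 (SE 0.10, adjusted p of 0.98 by edgeR), and it was above 0 in 7 of the 15 alternatives, 0.08 with library size scaling. Cnot6l (chromosome 5, 96070333 to 96164171, minus strand) was the least abundant member and the least certain. It had 107 and 184 counts in WT and 153 and 124 counts in KK, or 6.08 and 9.85 CPM against 7.62 and 6.75 CPM, with a log2 fold change of -0.15 (SE 0.18, adjusted p of 0.53 by edgeR). Without WT replicate 1 it was -0.46 (adjusted p of 0.033) and without WT replicate 2 it was 0.24 (adjusted p of 0.39, both by edgeR). Fits that use TPM or the effective length called it lower: it was -0.98 and -1.20 by limma on log2(TPM + 1) and log2(TPM + 0.1) (adjusted p of 0.038 and 0.033), and -1.27 with an effective length offset in edgeR (adjusted p of 0.0070).

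**Figure D2:**
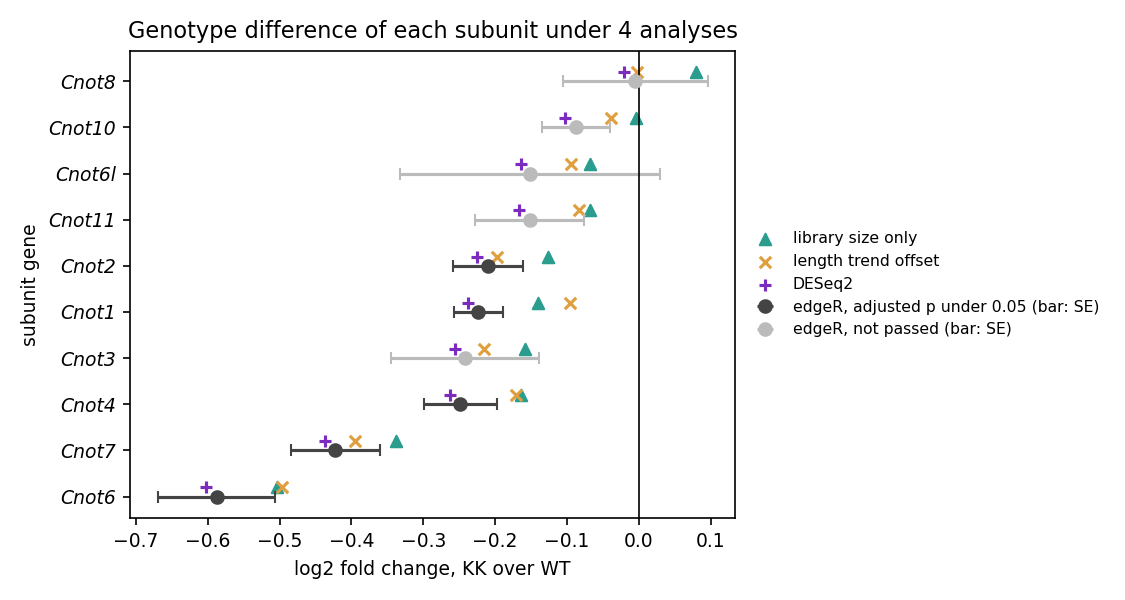
Log2 fold change of KK over WT for each subunit by edgeR (circles, bars are SE; dark where the adjusted p was under 0.05), with library size scaling, a length trend offset and DESeq2 beside it. Cnot6 and Cnot7 lie furthest to the left in all 4, and Cnot8 lies between -0.02 and 0.08.

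Within the NOT module Cnot2 fell and Cnot3 did not pass. Cnot2 (chromosome 10, 116485161 to 116581511, minus strand) had 103.4 and 104.7 CPM in WT and 91.0 and 89.0 CPM in KK, with groups that were tight and apart. It fell by 0.21 (SE 0.05, adjusted p of 7.5e-04 by edgeR). The fall was 0.13 with library size scaling, and limma on log2(TPM + 1) did not call Cnot2 (adjusted p of 0.077). On the other strand, 5330438D12Rik overlaps Cnot2 over 72460 bases. It had 100 and 119 counts in WT and 128 and 95 in KK. Cnot3 (chromosome 7, 3645268 to 3661109, plus strand) had 22.7 and 27.1 CPM in WT and 21.7 and 20.5 CPM in KK, a log2 fold change of -0.24 (SE 0.10, adjusted p of 0.057 by edgeR). It passed without WT replicate 1 (-0.37, adjusted p of 0.013), without KK replicate 1 (-0.30, adjusted p of 0.038) and with no filter on low counts (adjusted p of 0.048, all by edgeR). On TPM over all isoforms its difference had the other sign (0.06 by limma on log2(TPM + 1), adjusted p of 0.75). Counting protein-coding isoforms alone, Cnot3 stood at 12.18 and 13.13 TPM in WT and 7.81 and 10.11 TPM in KK (log2 ratio of means -0.50). Leng1, on the other strand, overlaps Cnot3 over 1012 bases, and reads of the shared stretch cannot be told apart. It had 445 and 416 counts in WT and 431 and 422 in KK (log2 fold change -0.10, adjusted p of 0.46 by edgeR).

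The ubiquitin ligase gene Cnot4 (chromosome 6, 35022065 to 35133724, minus strand) had 111.1 and 112.6 CPM in WT and 89.9 and 98.6 CPM in KK. It fell by 0.25 (SE 0.05, adjusted p of 1.8e-04 by edgeR), by 0.16 with library size scaling, and was not called by limma on log2(TPM + 1) (adjusted p of 0.068). Neither gene of the Cnot10 and Cnot11 module passed. Cnot10 (chromosome 9, 114585878 to 114640184, minus strand) had 105.5 and 106.0 CPM in WT and 97.4 and 101.6 CPM in KK, with a log2 fold change of -0.09 (SE 0.05, adjusted p of 0.14 by edgeR). Cnot11 (chromosome 1, 39534992 to 39546889, plus strand) had 51.7 and 51.2 CPM in WT and 47.1 and 45.5 CPM in KK, with a log2 fold change of -0.15 (SE 0.08, adjusted p of 0.11 by edgeR). For both genes the KK values lay below the WT values, and neither was called in any of the 15 alternatives.

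Within the DEDD-type pair the share of Cnot8 was higher in both KK libraries. Cnot8 made up 22.7% and 20.9% of the pair's TPM in WT and 27.2% and 28.7% in KK, or 21.8% ± 1.27 and 27.9% ± 1.04 (mean ± SD, n = 2 each). The groups did not overlap, and the same was true of the share of expected counts (20.0% and 17.6% against 22.9% and 24.3%). The two-sided exact permutation p was 0.333 by either measure, the smallest that 2 against 2 libraries can give.

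For the EEP-type pair the answer depended on the measure. Cnot6l made up 19.8% and 29.98% of the pair's TPM in WT and 18.8% and 14.3% in KK (24.9% ± 7.18 and 16.6% ± 3.21, mean ± SD, n = 2 each; two-sided exact permutation p = 0.333). In expected counts its share was 9.53% and 16.2% in WT and 17.6% and 15.6% in KK, the other direction, with overlap (two-sided exact permutation p = 0.667). The TPM of Cnot6l in WT rests on Cnot6l-207, a fragment model with an effective length of 31.9 and 32.8 bases. Its 1.35 and 2.16 counts in WT gave 3.05 and 4.51 TPM, and it was listed at 0 in KK. Over its 3 isoforms that reached 10 counts in 2 or more libraries, Cnot6l stood at 1.93 and 2.84 TPM in WT and 2.84 and 2.31 TPM in KK, and its share of the pair was 9.01% and 14.3% in WT and 18.8% and 14.3% in KK.

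**Figure D3:**
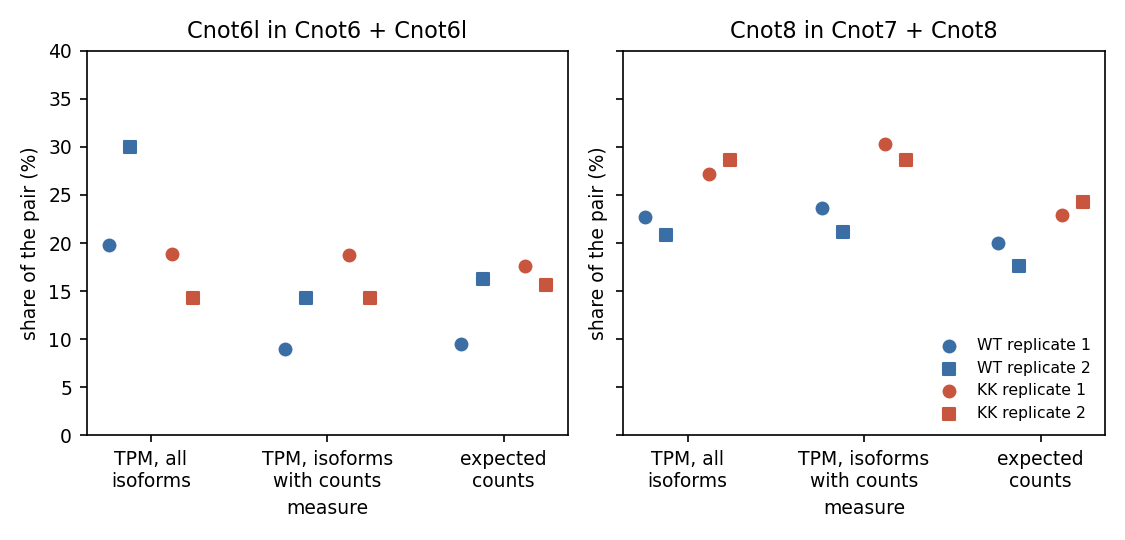
Share of Cnot6l in the Cnot6 and Cnot6l pair (left) and of Cnot8 in the Cnot7 and Cnot8 pair (right), in percent, for each library and by 3 measures. The Cnot8 share is higher in both KK libraries by every measure, while the Cnot6l share changes direction with the measure.

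Isoform values describe how the quantifier split reads between models and were not tested. Of 95 isoforms listed for the 10 genes, 43 reached 10 counts in 2 or more libraries. The isoform percent, the share of a gene's TPM held by an isoform, did not overlap between genotypes for 10 of the 43 (23.3%). Over isoforms of all genes with more than 1 model and the same minimum, 37.9% did not overlap. The members' isoforms with non-overlapping percents were spread over Cnot1, Cnot2, Cnot3, Cnot6, Cnot6l and Cnot10.

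Cnot3 showed a nonsense-mediated decay model in KK that was nearly without counts in WT. Cnot3-204 had 2.68 and 0 counts in WT and 92.6 and 25.8 counts in KK, and its isoform percent was 0.95% and 0% against 24.26% and 9.05%. The KK libraries differed between themselves more than 2-fold in this percent. The main coding isoform Cnot3-201 had 360 and 468 counts in WT and 256 and 297 in KK (77.23% and 91.07% against 40.83% and 63.25% of the Cnot3 TPM). The models differ in length and at both ends (Cnot3-201 has 2822 bases in 18 exons, Cnot3-204 has 1841 bases in 12 exons). They also differ at a splice acceptor. There Cnot3-204 takes in 55 added bases, chr7:3653145-3653199, which shift the frame to a stop codon at chr7:3653214-3653216. Reads on the added bases alone were not counted. The exon end and the following bases are given for both, from the GENCODE M21 transcripts on the plus strand, chr7:3652099-3653216 across an intron, because these bases tell the models apart; capitals mark the added bases.
Cnot3-201: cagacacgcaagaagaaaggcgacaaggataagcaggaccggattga
Cnot3-204: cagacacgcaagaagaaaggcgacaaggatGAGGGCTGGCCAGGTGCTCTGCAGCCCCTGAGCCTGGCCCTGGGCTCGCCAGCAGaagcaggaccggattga

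In counts, the longer of the coding isoforms of Cnot6 was lower in KK, as was the gene as a whole. Cnot6-203, a model of 5736 bases, had 718 and 682 counts in WT and 496 and 393 in KK. Cnot6-201, of 2498 bases, had 260 and 244 counts in WT and 203 and 277 in KK, so its groups overlapped. The percent of Cnot6-201 was 42.89% and 44.48% in WT and 47.97% and 63.72% in KK. That of Cnot6-203 was 47.68% and 50.04% in WT and 47.23% and 36.28% in KK. Its value in KK replicate 1 thus lay close to that in WT replicate 1. Both models have 12 exons, and their coding parts differ by 15 bases at a splice donor, chr11:49685248-49685262, shown here in capitals (GENCODE M21, minus strand, chr11:49685126-49685292 across an intron).
Cnot6-203: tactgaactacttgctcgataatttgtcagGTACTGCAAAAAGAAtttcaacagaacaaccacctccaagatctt
Cnot6-201: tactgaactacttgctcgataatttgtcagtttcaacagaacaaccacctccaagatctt

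In Cnot6l the coding isoform Cnot6l-202 had 25.9 and 13.4 counts in WT and 62.4 and 67.9 counts in KK, without overlap. The nonsense-mediated decay model Cnot6l-201 had 36.8 and 77.1 counts in WT and 56.9 and 12.99 in KK, and the long coding isoform Cnot6l-210 had 42.9 and 91.3 against 33.7 and 43.1. Cnot6l-202 holds 4 bases at a splice acceptor, chr5:96131242-96131245, that Cnot6l-201 lacks. The junction is given on the minus strand, chr5:96131228-96134040 across an intron; capitals mark the 4 bases in Cnot6l-202 and the early stop codon in Cnot6l-201.
Cnot6l-202: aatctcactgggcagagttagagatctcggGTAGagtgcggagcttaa
Cnot6l-201: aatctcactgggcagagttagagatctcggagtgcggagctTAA

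**Figure D4:**
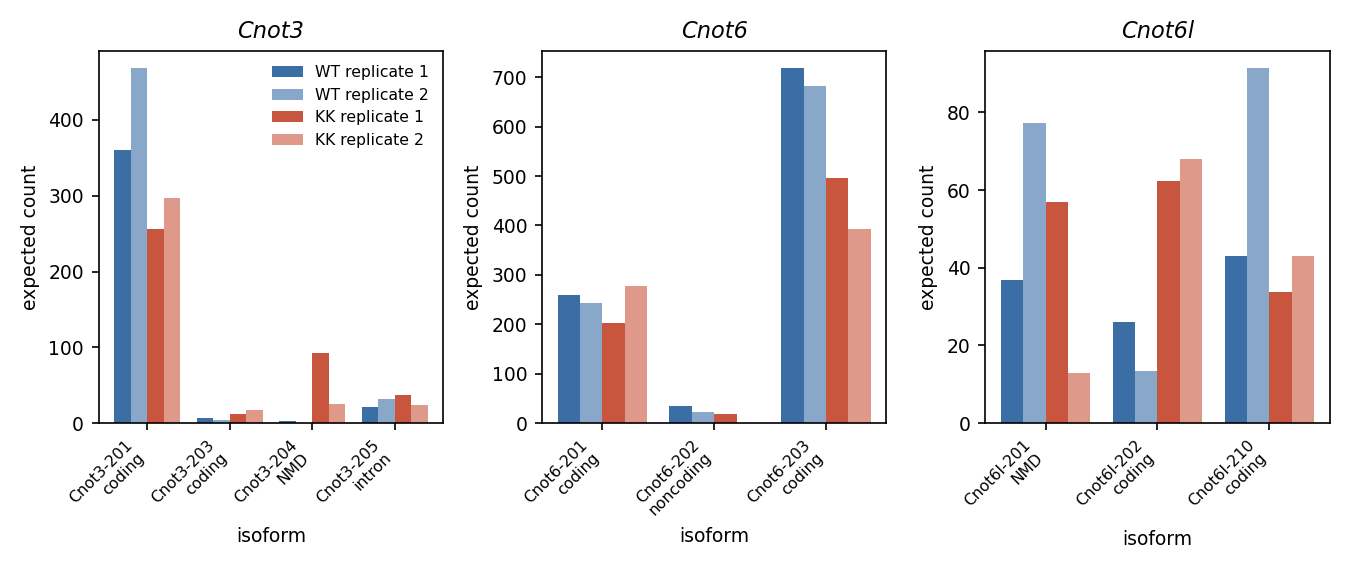
Expected counts of the isoforms of Cnot3, Cnot6 and Cnot6l that reached 10 counts in 2 or more libraries (bars, 1 per library; NMD, nonsense-mediated decay model). Cnot3-204 appears in the KK libraries, Cnot6-203 is lower in both KK libraries, and Cnot6l-202 is higher in both.

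Protein-coding isoforms held 90.5% and 93.8% of the Cnot3 TPM in WT and 49.2% and 77.8% in KK. Retained-intron models of Cnot3 held 8.54% and 6.21% in WT and 26.5% and 13.1% in KK. Among these, Cnot3-202 held 4.18% and 0% in WT and 19.85% and 7.81% in KK. It had only 4.14 and 0 counts in WT and 26.6 and 7.8 in KK, short of 10 counts in 2 libraries. In Cnot6l the protein-coding isoforms held 82.1% and 76.1% in WT and 57.7% and 87.0% in KK, so the groups overlapped. They held 99.5% to 100% of the TPM of Cnot4, 100% of that of Cnot8 and 91.3% to 92.8% of that of Cnot10 in the 4 libraries. For Cnot2, models of nonsense-mediated decay held 16.2% and 17.0% in WT and 17.4% and 13.1% in KK.

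Promoter sequences from RefSeq (GRCm38.p6) were matched for 8 of the 10 genes, in 14 windows; Cnot1 and Cnot7 had no entry. In the 250 bases upstream of a start, on either strand, the GC box GGGCGG, the core of SP1-type sites, was found in 11 of the 14 windows, at least 1 for each of the 8 genes, and in 32.7% of all 32851 windows of the same length. The ETS core CCGGAAG was found in 3 of the 14 windows, of Cnot6l, Cnot10 and Cnot11 (6.91% of all windows), and the MYB core TAACNG in 3, of Cnot3, Cnot4 and Cnot11 (19.8%). The CCAAT box was found in 2 of the 14, of Cnot3 and Cnot6 (33.8%), and TATAAA in 0 (12.4%). Genes that fell and genes that did not pass both carried the GC box. The upstream windows of Cnot6 (chr11:49712723-49712972, minus strand) and Cnot4 (chr6:35133738-35133987, minus strand), the matched genes with the largest falls, are given with the GC boxes in capitals.
Cnot6: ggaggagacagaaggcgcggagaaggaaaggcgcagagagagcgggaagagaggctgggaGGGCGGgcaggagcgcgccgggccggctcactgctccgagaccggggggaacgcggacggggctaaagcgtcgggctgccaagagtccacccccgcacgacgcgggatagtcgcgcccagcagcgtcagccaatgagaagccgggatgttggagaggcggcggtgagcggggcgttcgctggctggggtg
Cnot4: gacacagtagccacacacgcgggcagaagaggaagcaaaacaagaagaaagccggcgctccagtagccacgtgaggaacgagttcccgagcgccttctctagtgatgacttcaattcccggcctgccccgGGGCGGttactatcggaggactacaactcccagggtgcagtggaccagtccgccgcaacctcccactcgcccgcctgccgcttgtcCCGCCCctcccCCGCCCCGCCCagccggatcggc

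Other genes around the complex were taken from lists. The counts of genes that fell or rose in each list are to be read beside 21.7% lower and 22.0% higher over all 16571 genes tested. Cnot9, a further core subunit, fell from 69.9 and 66.9 CPM to 58.9 and 57.8 CPM (log2 fold change -0.23, SE 0.06, adjusted p of 0.0045 by edgeR), and the partner gene Tnks1bp1 did not pass (-0.08, adjusted p of 0.79 by edgeR). Of 9 genes listed as other deadenylases 5 fell and 0 rose, with a median log2 fold change of -0.22. A place in this list does not show deadenylase activity, which was not measured. Angel1 fell from 471 ± 14.9 to 382 ± 6.06 CPM, Pan2, the nuclease of the PAN2-PAN3 complex, from 70.3 ± 1.5 to 50.3 ± 8.71 CPM, and Angel2 from 65.5 ± 2.15 to 56.2 ± 2.69 CPM (mean ± SD, n = 2 each). For each gene named from these lists as higher or lower, the edgeR adjusted p was at most 0.0086.

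Of 31 genes for proteins that bring CCR4-NOT to mRNAs, 27 could be tested; 10 rose and 9 fell, with a median of -0.10. Ddx6, a helicase that binds Cnot1, fell from 91.4 and 88.6 to 60.0 and 53.7 CPM. Of the microRNA effector genes, Tnrc6c fell from 145 and 155 to 112 and 120 CPM, and Tnrc6b rose from 10.1 and 8.46 to 35.5 and 35.2 CPM. Samd4, the gene of a Smaug-type protein, rose from 148 and 144 to 170 and 188 CPM, and Zfp36, whose product binds AU-rich elements, rose from 4.54 and 3.91 to 9.06 and 9.09 CPM.

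Of 26 genes of poly(A) polymerases and tail-binding proteins 22 could be tested; 4 rose and 9 fell, with a median of -0.16. Pabpc1, the main cytoplasmic poly(A)-binding protein gene, fell from 3785 and 3910 to 2963 and 3085 CPM. Its relative Pabpc6 fell from 952 and 966 to 749 and 768 CPM, and Tut4, a terminal uridylyltransferase gene, fell from 60.5 and 62.2 to 45.1 and 44.4 CPM. The poly(A) polymerase genes Tent5d (13.9 and 13.4 to 26.7 and 26.8 CPM) and Tent5b (60.4 and 62.5 to 74.1 and 77.9 CPM) rose, as did Paip2b (12.8 and 13.3 to 18.4 and 19.6 CPM). Of 16 decapping and 5'-to-3' decay genes 1 rose and 5 fell, with a median of -0.10. The decapping scaffold and activator genes Edc4 (291 and 305 to 231 and 245 CPM), Edc3 (41.9 and 42.8 to 33.4 and 33.4 CPM) and Dcp1a (20.4 and 23.8 to 17.9 and 15.4 CPM) fell, and Lsm14a rose (12.4 and 13.3 to 19.1 and 17.4 CPM).

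**Figure D5:**
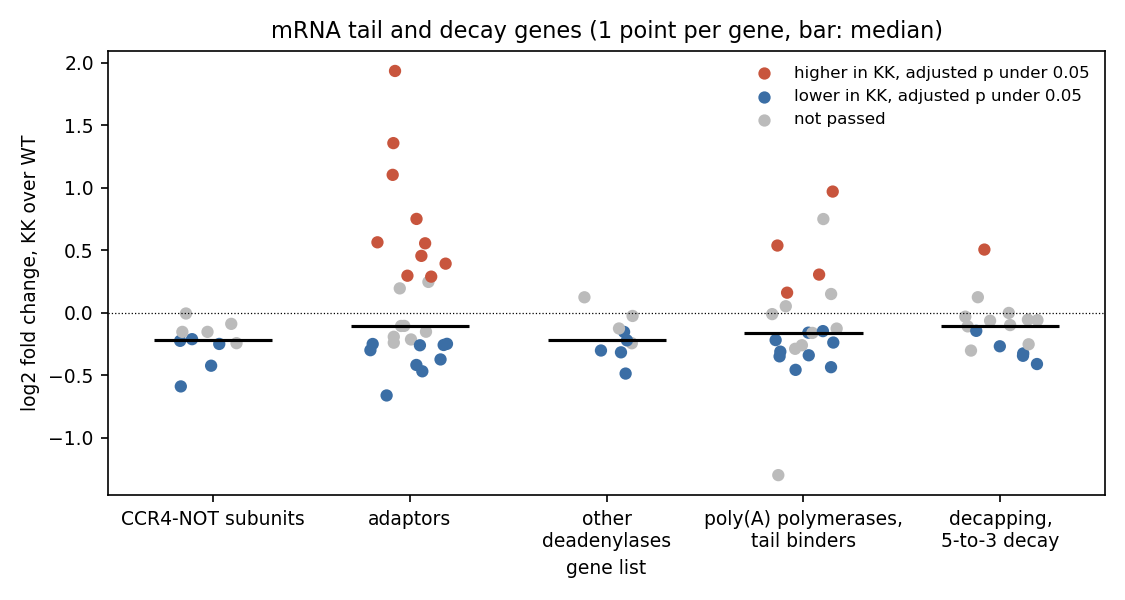
Log2 fold change of KK over WT for each tested gene in 5 lists (points; blue lower and red higher at an edgeR adjusted p under 0.05, grey not passed; bars are medians). No gene listed as a CCR4-NOT subunit or other deadenylase rose past the test, and the adaptor list has 10 genes higher and 9 lower. Over all genes tested, 22.0% were higher and 21.7% lower.

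Among 14374 genes with a mean of at least 1 CPM, those whose log2 CPM over the 4 libraries lay closest to Cnot1, after centring each gene on its mean, were Rpe, Strbp and Ube2d2a. Their Euclidean distances were 0.00079, 0.0044 and 0.0087. Because these genes were picked on the same values, fold changes like that of Cnot1 follow from the choice and show no link to it. Their log2 fold changes were -0.22, -0.22 and -0.22, and Rpe, at 11.2 and 11.5 CPM in WT, did not pass (adjusted p of 0.16 by edgeR).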

How the data were processed

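RNA-seq of pachytene spermatocytes gave 1 gene table and 1 isoform table for each of 4 libraries. Bowtie, mm10 and GRCm38 are named per the submitters' processing notes. The sources used here do not give the quantifier or the authors' annotation release. The values deposited per the file headers are expected counts, TPM, effective lengths and, for isoforms, the percent of the gene's TPM. Symbols and positions came from GENCODE M21 (GRCm38), which held 55104 of the 55364 identifiers.

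Expected counts were rounded and fitted with edgeR 4.0.16 (R 4.3.3): TMM factors, default expression filter, quasi-likelihood test on genotype and Benjamini-Hochberg adjustment over all 16571 tested genes at 0.05. The standard error is the log2 fold change over the square root of F. The edgeR fit was also run on counts simulated from its own fitted dispersions, with few genes changed. Far more genes were called here, so that run does not test the scaling or the model for these data. Alternatives used DESeq2 1.42.0, limma 3.58.1 on log2(TPM + 1) or log2(TPM + 0.1), other scalings and filters, length offsets, a replicate block and each library left out. Same-numbered libraries did not deviate together (r = -0.058). Named genes were the members, Ddx4, up to 3 genes per list and direction with the smallest adjusted p, and the 3 genes closest to Cnot1. A gene that this rule selects is not reported here. The members and lists were chosen with earlier results of these data known.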

Additional observations from a re-analysis of the deposited data

How the results depend on the processing

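The falls of Cnot1, Cnot6 and Cnot7 passed in all 15 alternatives; those of Cnot2 and Cnot4 passed in 13 each, and were lost in both limma fits on TPM. The sign turned for Cnot3 with limma at a pseudocount of 1 (0.0596) or 0.1 (0.0630) and with an effective length offset (0.0537), for Cnot6l without WT replicate 2 (the range leaving out each library was -0.462 to 0.238), and for Cnot8 in 7 alternatives. Neither Cnot3, Cnot6l nor Cnot8 had passed to begin with. Cnot8 stood at 0.0792 with library size scaling, 0.00912 with TMM factors from autosomal genes, 0.00941 and 0.0100 in the limma fits, 0.00724 at a mean CPM of at least 1, and -0.0653 to 0.0412 leaving out each library. Cnot6l passed as lower in the limma fits (-0.98 and -1.20) and with the effective length offset (-1.27). Those fits take in the fragment model Cnot6l-207, with 1.35 and 2.16 counts in WT. Without isoforms below 10 counts, the log2 ratio of its mean TPM was 0.11.

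Leaving out each library gave 5 to 7 members lower and 0 higher. Of all genes, 3589 fell and 3648 rose; limma at pseudocounts of 1 and 0.1 gave 1485 and 1510 lower and 1923 and 1928 higher, the effective length offset 2283 and 2379, and DESeq2 2033 higher. Of the calls 50.4% were higher, against 64.2% with library size scaling, which raised the median of all genes to 0.09. For the other pathway genes (29 lower, 15 higher) limma gave 10 and 11 lower and 5 and 5 higher, the effective length offset 18 lower and DESeq2 8 higher. The cause was not tested. The Cnot6l share of its pair was 8.33 points lower in KK by TPM, but 3.72 points higher in counts and 4.89 points higher over isoforms that reached 10 counts, a measure added after the data were seen. The Cnot8 share was 6.16 points higher by TPM and 4.81 in counts. The ratio of summed TPM, KK to WT, was 0.844, and 0.797 after rescaling by TMM factors.

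With a replicate block, 5 members were lower and 0 higher, and 3634 genes were lower and 3675 higher over all; it changed no member's call. The libraries share only a number (r = -0.058). The counts of Cnot6l (107 to 184) and Cnot3 limit what can be said of them.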
